A study of Mus musculus with 8 samples.

Results

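The miR-15/16 family with its relatives miR-195 and miR-322 was followed through 8 small RNA libraries of mouse embryonic stem (ES) cells as 9 mature miRNAs, out of 1915 rows in the deposited count table. The members were taken by name: mmu-miR-15a-5p, mmu-miR-15b-5p, mmu-miR-16-5p, mmu-miR-195a-5p and mmu-miR-322-5p, which share one seed, and the partner arms mmu-miR-15a-3p, mmu-miR-15b-3p, mmu-miR-195a-3p and mmu-miR-322-3p, which come from the same hairpins (the mouse prefix mmu is left out from here on). All 9 members were among the 475 miRNAs abundant enough to be tested.

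The libraries fall into 4 groups of 2. The induced AGO1 line (A and B) is an Ago2 knockout line carrying inducible ectopic AGO1, given 1 µg/mL doxycycline, and the uninduced AGO1 line (A and B) is that line without doxycycline. The labels name it after knockout line 1 and give A and B a common source name, so both AGO1 groups represent a single line, kept in 2 µg/mL puromycin. The Ago2 knockouts are lines 1 and 2, which carry no AGO1 construct per the labels, and the wild type is the E14 line (A and B), derived from a 129/Ola blastocyst. Every group except wild type therefore lacks Ago2. All cells grew in 15% serum with 100 U/mL LIF, a cytokine that keeps ES cells undifferentiated. The labels do not say that A and B are separate cultures, so the p-values measure only the spread between these libraries, which may be technical.

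A miRNA hairpin is cut into a duplex, and the strand that is kept, the 5p or the 3p arm, is loaded into an Argonaute protein, of which AGO1 and AGO2 are members. The loaded strand finds its targets mainly through its seed, bases 2 to 8, so miRNAs with the same seed are expected to share targets. The miR-15/16 family is best known for repressing cell cycle and survival genes, among them cyclins D and E, CHK1, WEE1 and BCL2, and the human miR-15a and miR-16-1 locus is deleted in many chronic lymphocytic leukaemias. In mouse cells, miR-16-5p comes from a pair of hairpins, and miR-322 is the mouse counterpart of human miR-424.

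The mature sequences, from RefSeq on GRCm38.p6, show which members can share targets and which are close enough in sequence to share reads. Capitals mark bases 2 to 8, counted from the 5′ end, and miR-497a-5p is added because it has the seed and sits beside miR-195a. The 5 seed-sharing members and miR-497a-5p read, 5′ to 3′:
miR-15a-5p: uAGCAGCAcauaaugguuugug
miR-15b-5p: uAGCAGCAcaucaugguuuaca
miR-16-5p: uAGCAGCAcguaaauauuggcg
miR-195a-5p: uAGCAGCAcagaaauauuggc
miR-322-5p: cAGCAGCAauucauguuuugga
miR-497a-5p: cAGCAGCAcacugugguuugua
The 4 partner arms each have a different seed:
miR-15a-3p: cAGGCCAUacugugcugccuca
miR-15b-3p: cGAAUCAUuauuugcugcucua
miR-195a-3p: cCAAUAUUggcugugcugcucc
miR-322-3p: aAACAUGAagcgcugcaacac

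The seed AGCAGCA occurred in 10 of the 1679 mature miRNAs of the reference, and all 10 had a row in the count table. Past the seed the members diverge: miR-15a-5p and miR-15b-5p had the same base at 18 of 22 positions, miR-16-5p and miR-195a-5p at 19 of 21, and miR-16-5p and miR-322-5p at 12 of 22. miR-15a-5p, miR-15b-5p, miR-16-5p and miR-195a-5p begin with U, whereas miR-322-5p and miR-497a-5p begin with C. Because miR-195a-5p differs from the far more abundant miR-16-5p at so few positions, its counts are uncertain to the extent that reads of miR-16-5p could be assigned to it. The mismatch limit of the alignment is not stated in the sources used here.

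The hairpins lie at 4 places in the genome (GRCm38 coordinates, GENCODE vM21 annotation). Mir15a (the span of its mature arms, chr14:61632038-61632096, minus strand) lies in an intron of the long non-coding RNA gene Dleu2, and the neighbouring Mir16-1 (chr14:61631880-61631972) overlaps a Dleu2 exon. Mir15b (chr3:69009772-69009835, plus strand) and Mir16-2 (chr3:69009902-69009996) lie in introns of Smc4, a condensin subunit gene. Mir195a (chr11:70235042-70235135, plus strand) overlaps no other annotated gene and lies next to Mir497 (chr11:70234717-70234800). Mir322 (chrX:53054255-53054349, minus strand) lies next to Mir503 (chrX:53053984-53054054) and close to Mir351.

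The table holds no mRNA, so the loss of Ago2 and the induction of AGO1 were not checked here. Library totals ranged from 163467 (knockout line 2) to 1326638 counts (induced A), and uninduced B and both knockout lines were the shallow ones. The markers fixed for ES cells, 9 miRNAs of the miR-290 and miR-302 clusters, had no member at 0 and summed to 238141 to 253606 CPM (counts scaled to a library of 1000000) in the induced line, 196605 to 202721 CPM in the uninduced line, 187930 to 217697 CPM in the knockouts and 200395 to 246983 CPM in wild type. The 6 blood markers summed to 3710 to 3872, 6210 to 6716, 5715 to 6389 and 1834 to 1881 CPM in the same order of groups, with miR-223-3p and miR-451a at 0 in every library. The 5 fibroblast and smooth muscle markers summed to 1853 to 2031, 321 to 374, 407 to 462 and 3192 to 3748 CPM, with miR-214-3p at 0 throughout. The 4 neural markers summed to 1057 to 1214, 813 to 1177, 905 to 958 and 1662 to 2061 CPM with none at 0, the 4 muscle markers to at most 6.61 CPM with 3 or 4 of them at 0, and miR-122-5p of liver had no count. The blood sums were thus lower, and the fibroblast and neural sums higher, in both wild type libraries than in any library without Ago2. Blood sums were lower and fibroblast sums higher in induced than in uninduced cells. Single miRNAs carried most of the fibroblast, blood, ES cell and neural sums. Over all libraries miR-143-3p had 11293 counts and each other fibroblast marker at most 204. Of the blood markers, miR-150-5p had 15760 counts, miR-142a-5p 5397 and miR-142a-3p 958. Among the ES cell markers miR-295-3p had 906945 counts, each other miR-290 cluster marker at most 168041 and the miR-302 markers 194 to 550. The neural marker miR-128-3p had 4508 counts and each other neural marker at most 2050. These sums therefore need not speak for whole lists, and their part in the family's differences was not tested. The knockout lines resembled each other less (Spearman correlation over the tested miRNAs 0.902) than did the libraries of the other groups (0.973 to 0.985).

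miR-16-5p made up nearly all of the family. It was at 25305 and 21820.0 CPM in induced A and B, 25036 and 23811 CPM in uninduced A and B, 25007 and 18829 CPM in knockout lines 1 and 2, and 21549.6 and 21046 CPM in wild type A and B. CPM values are on library totals scaled by edgeR's TMM factors, which correct for differences in composition. In such bulk libraries, fewer cells that make a miRNA and less of it per cell cannot be told apart. The groups in order of mean level, wild type lowest and uninduced highest, overlapped at every step of that order. Both the uninduced and the induced line nevertheless lay above wild type in every library, with neither difference called. Of the counts of the 5 seed-sharing members, miR-16-5p held 94.5% ± 0.38 in the induced line, 93.5% ± 0.26 in the uninduced line, 92.3% ± 0.15 in the knockouts and 93.3% ± 0.47 in wild type (SD, n = 2 each). The summed level of the 5 members was 24929 ± 2707 CPM in the induced line, 26113 ± 997 CPM in the uninduced line, 23755 ± 4696 CPM in the knockouts and 22836 ± 496 CPM in wild type (SD, n = 2 each). The pool of the shared seed, as far as these members make it up, was thus set by miR-16-5p in every library, and the changes described below concern its minor members.

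The other seed-sharing members ranged between 78.3 CPM (miR-195a-5p in wild type B) and 877 CPM (miR-15b-5p in wild type A). miR-15a-5p, made beside miR-16-1, was at 445 and 329.9 CPM in the induced line, 496.5 and 522 CPM in the uninduced line, 581 and 478 CPM in the knockouts and 505 and 443 CPM in wild type. miR-15b-5p, made beside miR-16-2, was at 715 and 560.0 CPM in the induced line, 651 and 489 CPM in the uninduced line, 721 and 563 CPM in the knockouts and 877 and 779.9 CPM in wild type. Both stayed within a narrow range, and wild type had the highest miR-15b-5p in both of its libraries. miR-195a-5p was at 152 and 109 CPM in the induced line, 286 and 298 CPM in the uninduced line, 205 and 287 CPM in the knockouts and 86.6 and 78.3 CPM in wild type. miR-322-5p, from the X-linked cluster, was at 226 and 196 CPM in the induced line, 349 and 288 CPM in the uninduced line, 561 and 277 CPM in the knockouts and 168 and 137.6 CPM in wild type. In these last 2 members wild type was lowest in both libraries, the induced line came next without overlapping it, and the uninduced line and the knockouts overlapped each other at the top.

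**Figure D1:**
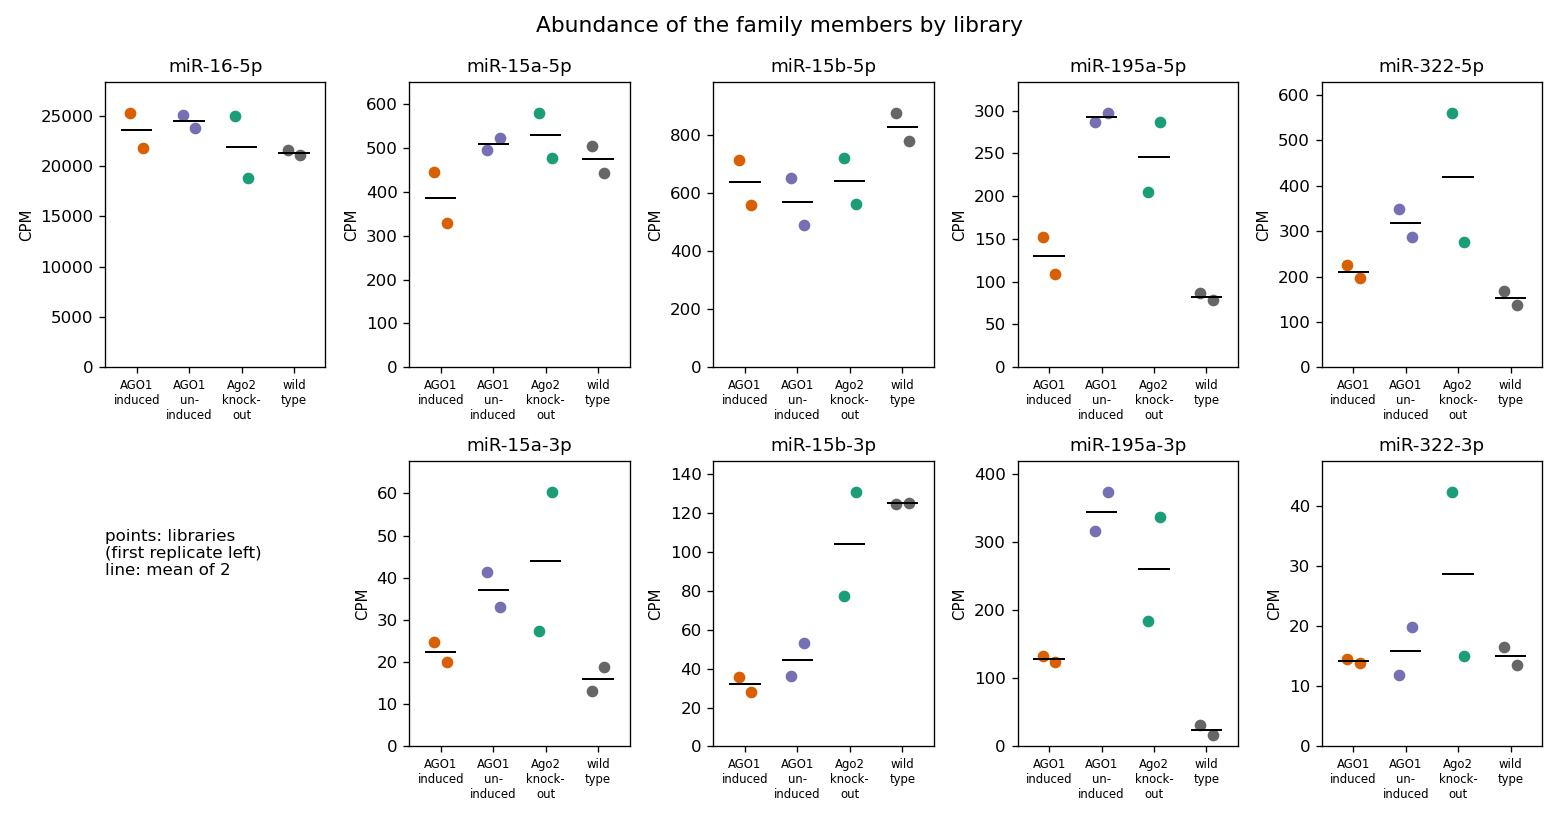
Abundance of each family member in CPM (linear axis from 0, its own scale in each panel) for the induced AGO1 line, uninduced AGO1 line, Ago2 knockouts and wild type. Points are libraries and lines are means of 2. miR-16-5p is at similar levels in all 4 groups, whereas miR-195a-5p and miR-195a-3p are highest in the uninduced line and the knockouts, and miR-15b-3p is lowest in both AGO1 groups.

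Among the partner arms, miR-15a-3p, miR-15b-3p and miR-322-3p were far less abundant than the 5p arms of their hairpins. miR-195a-3p was near the level of miR-195a-5p in the libraries without Ago2 and below it in wild type. miR-195a-3p was at 132.6 and 123.6 CPM in the induced line, 315 and 374 CPM in the uninduced line, 185 and 337 CPM in the knockouts and 32.0 and 17.1 CPM in wild type. Every library without Ago2 was above both wild type libraries. miR-15b-3p went a different way, at 35.9 and 27.9 CPM in the induced line, 35.9 and 52.9 CPM in the uninduced line, 77.3 and 131 CPM in the knockouts and 125 and 125 CPM in wild type. Knockout line 2 was at the wild type level, knockout line 1 was lower, and all 4 libraries of the AGO1 line were lower than either knockout line. miR-15a-3p was at 24.8 and 19.9 CPM in the induced line, 41.3 and 33.1 CPM in the uninduced line, 27.4 and 60.4 CPM in the knockouts and 13.1 and 18.9 CPM in wild type. miR-322-3p was at 14.5 and 13.95 CPM in the induced line, 11.98 and 19.8 CPM in the uninduced line, 42.4 and 15.1 CPM in the knockouts and 16.6 and 13.5 CPM in wild type, so a single library, knockout line 1, stood above the rest. Behind these last values are 10 to 31 counts of miR-15a-3p and 3 to 17 counts of miR-322-3p per library. Over the 8 libraries, the SD of the log2 level was 0.14 for miR-16-5p, 0.23 for miR-15a-5p and 0.26 for miR-15b-5p. It was 0.60 for miR-322-5p and 0.74 for miR-195a-5p. Among the 3p arms it was 0.51 for miR-322-3p, 0.63 for miR-15a-3p, 0.84 for miR-15b-3p and 1.51 for miR-195a-3p.

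The make-up of the 3p members therefore differed between groups much more than that of the 5p members. Their summed level was 197 ± 15.9 CPM in the induced line, 442 ± 52.9 CPM in the uninduced line, 438 ± 150 CPM in the knockouts and 180 ± 8.33 CPM in wild type (SD, n = 2 each). miR-195a-3p held 65.2% ± 2.04 of these counts in the induced line, 77.9% ± 0.021 in the uninduced line, 58.8% ± 4.52 in the knockouts and 13.5% ± 5.24 in wild type (SD, n = 2 each). miR-15b-3p held 16.2% ± 1.58, 9.96% ± 1.52, 23.7% ± 0.54 and 69.3% ± 3.37 in the same order of groups. The leading 3p member was thus miR-15b-3p in both wild type libraries and miR-195a-3p in all 6 libraries without Ago2. No test was made of these sums and shares, since the members were chosen with results known.

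**Figure D2:**
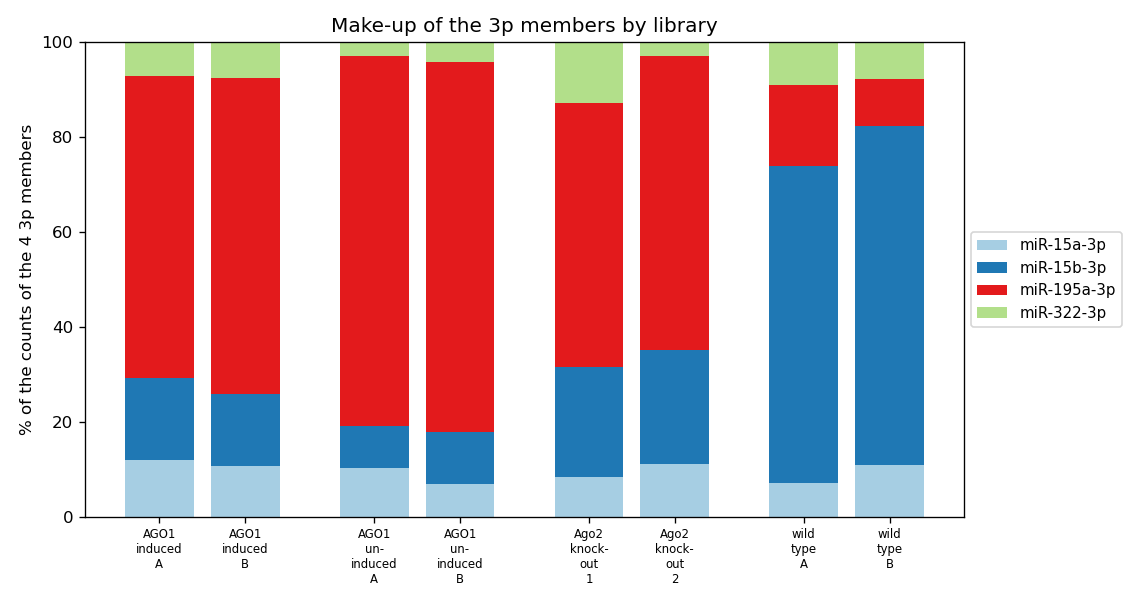
Share of each 3p member in the summed counts of the 4 3p members (stacked to 100%), by library, for the induced AGO1 line, uninduced AGO1 line, Ago2 knockouts and wild type. miR-195a-3p takes 55.6% to 77.96% in the 6 libraries without Ago2 and 9.79% to 17.2% in wild type, where miR-15b-3p takes 66.9% to 71.6%.

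Loss of Ago2 was first compared with wild type. In the knockouts both arms of miR-195a rose, as did miR-322-5p and miR-15a-3p, and the abundant miR-16-5p, miR-15a-5p and miR-15b-5p did not pass the test. The 4 groups were fitted together with edgeR's quasi-likelihood F test, and a member is called here at a Benjamini-Hochberg adjusted p under 0.05 over all 475 miRNAs tested. By that rule 4 of the 9 members were higher in the knockouts and 0 lower, where 25.5% of all tested miRNAs were higher and 32.2% lower. The median log2 fold change was 1.09 for the members and -0.12 for all tested miRNAs.

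miR-195a-3p averaged 261 ± 108 CPM in the knockouts and 24.6 ± 10.6 CPM in wild type (SD, n = 2 each), a log2 fold change of 3.40 ± 0.40 (standard error, derived from the F statistic; by edgeR, adjusted p = 8.67e-05), or 10.5-fold. Without wild type A the log2 fold change was 4.08. miR-195a-5p averaged 246 ± 58.1 CPM in the knockouts and 82.4 ± 5.91 CPM in wild type, a log2 fold change of 1.56 ± 0.30 (by edgeR, adjusted p = 0.00165). Both arms were called under all 15 alternative fits. The libraries of the groups did not overlap for either arm, but neither did they for the uncalled miR-15b-5p. How common this was over all tested miRNAs is not given here.

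miR-322-5p averaged 419 ± 201 CPM in the knockouts and 153 ± 21.8 CPM in wild type (SD, n = 2 each), a log2 fold change of 1.48 ± 0.32 (by edgeR, adjusted p = 0.00375). Knockout line 1 carried much of this: the log2 fold change was 0.86 without it and 1.91 without line 2, with a call in both fits. The partner arm miR-322-3p followed the same split, with 28.8 ± 19.3 CPM in the knockouts and 15.1 ± 2.21 CPM in wild type and a log2 fold change of 1.09 ± 0.53 that was not called (by edgeR, adjusted p = 0.101). Without knockout line 1 its log2 fold change was 0.024, and without line 2 it was 1.54 and called (by edgeR, adjusted p = 0.0271), as it was with no TMM factors (1.37, adjusted p = 0.0435).

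miR-15a-3p averaged 43.9 ± 23.3 CPM in the knockouts and 15.97 ± 4.13 CPM in wild type (SD, n = 2 each), a log2 fold change of 1.31 ± 0.50 (by edgeR, adjusted p = 0.0438). This call, from 23 counts in the knockouts and 32 in wild type, was lost without knockout line 2 (log2 fold change 0.79, adjusted p = 0.299), wild type A (1.27, adjusted p = 0.113) or wild type B (1.61, adjusted p = 0.0670) in edgeR, and by DESeq2 (adjusted p = 0.0892). The call was also lost with no filter (by edgeR, adjusted p = 0.0583) and with only the 2 groups fitted (by edgeR, adjusted p = 0.0757). It held in 8 of 14 alternatives, and without knockout line 1 the log2 fold change was 1.89. The guide arm of the same hairpin, miR-15a-5p, had a log2 fold change of 0.16 ± 0.23. For the remaining members the log2 fold changes were 0.042 ± 0.17 for miR-16-5p, -0.36 ± 0.23 for miR-15b-5p and -0.31 ± 0.34 for miR-15b-3p, none of them called (by edgeR, adjusted p = 0.840, 0.202 and 0.451).

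**Figure D3:**
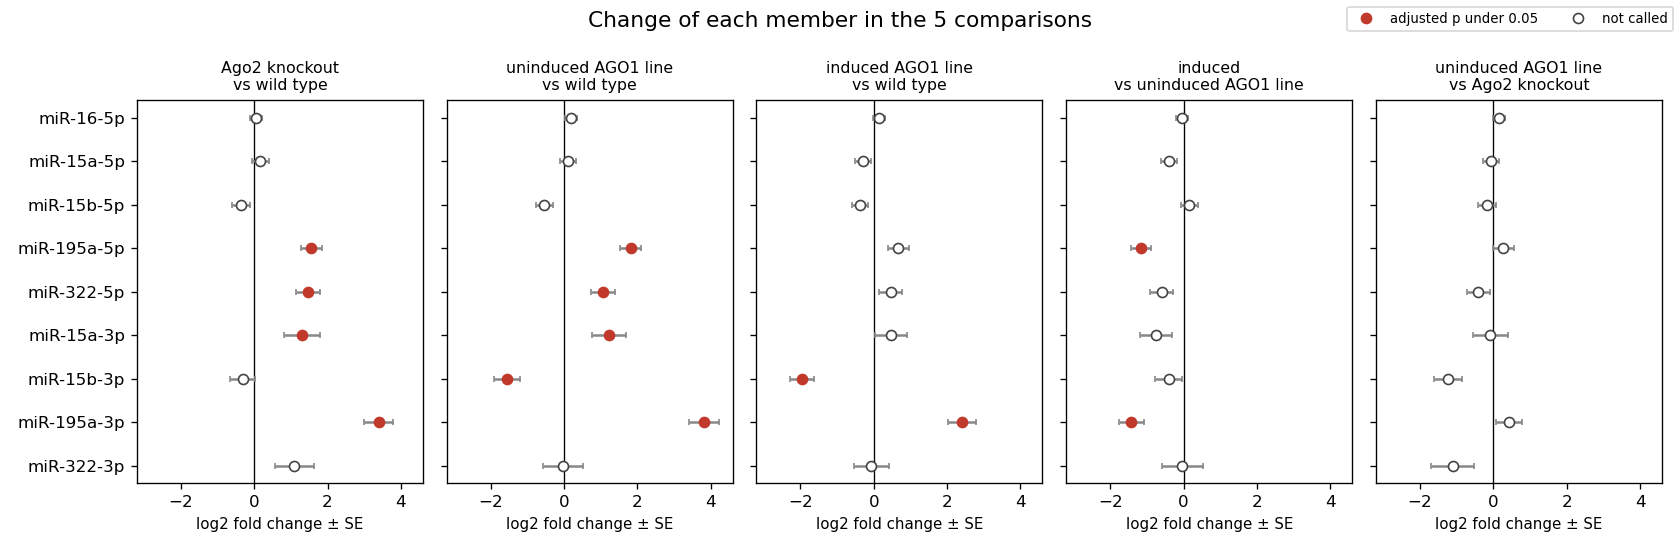
Log2 fold change of each member (bars, ± 1 standard error) in the 5 comparisons, positive where the group named first is higher. Filled points passed an by edgeR, adjusted p of 0.05. miR-195a-3p is called in 4 comparisons, positive in the 3 against wild type and negative in induced against uninduced cells, and no member is called between the uninduced line and the knockouts.

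The uninduced AGO1 line lacks Ago2 like the knockouts and was compared with the same wild type libraries, so the comparisons are not independent. The labels also name this line after knockout line 1, itself a library of the knockout group. Of the 9 members, 4 were higher and 1 lower in the uninduced line, where 25.9% of all tested miRNAs were higher and 33.3% lower. The median log2 fold change was 0.20 for the members and -0.14 for all tested miRNAs. The higher members were both arms of miR-195a, miR-322-5p and miR-15a-3p, and the lower one was miR-15b-3p. Only the AGO1 line carries the construct and was kept in puromycin. In this comparison these cannot be told apart from the loss of Ago2 or from a trait of this single line.

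miR-195a-3p averaged 345 ± 41.1 CPM in the uninduced line and 24.6 ± 10.6 CPM in wild type (SD, n = 2 each), a log2 fold change of 3.82 ± 0.40 (by edgeR, adjusted p = 3.47e-05) that was 4.45 without wild type A. miR-195a-5p averaged 291.9 ± 8.06 CPM in the uninduced line and 82.4 ± 5.91 CPM in wild type, a log2 fold change of 1.82 ± 0.29 (by edgeR, adjusted p = 0.000463). Both were called under all 17 alternatives. Neither overlapped wild type, but nor did the uncalled miR-15b-5p and miR-16-5p, and the share over all tested miRNAs is not given here. miR-15b-3p averaged 44.4 ± 11.996 CPM in the uninduced line and 125 ± 0.31 CPM in wild type, a log2 fold change of -1.55 ± 0.36 (by edgeR, adjusted p = 0.00421). That fall was called under 16 of 17 alternatives and lost without uninduced A (log2 fold change -1.31, adjusted p = 0.0563).

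In the calls of the smaller rises, single libraries mattered. miR-322-5p averaged 318 ± 43.2 CPM in the uninduced line and 153 ± 21.8 CPM in wild type (SD, n = 2 each), a log2 fold change of 1.06 ± 0.32 (by edgeR, adjusted p = 0.0160). The call was lost without uninduced A (log2 fold change 0.84, adjusted p = 0.145), without wild type B (0.90, adjusted p = 0.106) or with all libraries thinned to the smallest total (0.96, adjusted p = 0.0675) in edgeR. miR-15a-3p averaged 37.2 ± 5.80 CPM in the uninduced line and 15.97 ± 4.13 CPM in wild type, a log2 fold change of 1.23 ± 0.45 (by edgeR, adjusted p = 0.0381). Its call was lost without uninduced A (0.93, adjusted p = 0.292), wild type A (1.14, adjusted p = 0.122) or wild type B (1.51, adjusted p = 0.0667) in edgeR, and by DESeq2 (adjusted p = 0.123). miR-15b-5p had a log2 fold change of -0.53 ± 0.23 that was not called (by edgeR, adjusted p = 0.0691), although 5 of 17 alternatives called it, among them the fits without knockout line 1 (adjusted p = 0.0184) and without line 2 (adjusted p = 0.0215). miR-15a-5p, miR-16-5p and miR-322-3p had log2 fold changes of 0.10, 0.20 and -0.026 and were not called.

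Set against the knockouts directly, the uninduced line showed no called member, and 0 of all 475 tested miRNAs were called by edgeR (0%), with 72 at an unadjusted p under 0.05 and 5 called by DESeq2. The largest difference among the members was in miR-15b-3p, at 44.4 ± 11.996 CPM in the uninduced line and 104 ± 37.8 CPM in the knockouts (SD, n = 2 each), a log2 fold change of -1.23 ± 0.39 (by edgeR, adjusted p = 0.206). Without knockout line 1 it was -1.63 and called (by edgeR, adjusted p = 0.00977), in a fit that called 61 miRNAs. Without knockout line 2, miR-322-5p was called at a log2 fold change of -0.83 (by edgeR, adjusted p = 0.0372, 33 miRNAs called), and without line 1 its log2 fold change was 0.22. The fit without line 1 tested 527 miRNAs and that without line 2 tested 520. For miR-195a-5p and miR-195a-3p the log2 fold changes were 0.26 ± 0.29 and 0.42 ± 0.35, which does not show that the uninduced line and the knockouts are alike. Here the construct, puromycin and the single line cannot be told apart, and knockout line 1 is the line that the labels name as its source.

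The induced AGO1 line was then compared with the uninduced line. Only the induced cells received doxycycline, so AGO1 and doxycycline itself cannot be told apart here. Both arms of miR-195a fell in induced cells, and no other member was called. Of the 9 members, 0 were higher and 2 lower, where 21.1% of all tested miRNAs were higher and 7.79% lower. The median log2 fold change was -0.41 for the members and 0.03 for all tested miRNAs.

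miR-195a-5p averaged 130 ± 30.8 CPM in induced cells and 291.9 ± 8.06 CPM in uninduced cells (SD, n = 2 each), a log2 fold change of -1.16 ± 0.28 (by edgeR, adjusted p = 0.0129). miR-195a-3p averaged 128.1 ± 6.37 CPM in induced cells and 345 ± 41.1 CPM in uninduced cells, a log2 fold change of -1.42 ± 0.35 (by edgeR, adjusted p = 0.0131). In both arms every induced library was below every uninduced one, as was also so for the uncalled miR-15a-5p, miR-15a-3p, miR-15b-3p and miR-322-5p. Such separation therefore does not set the called arms apart, and its share over all tested miRNAs is not given here. The miR-195a-5p call was lost without uninduced A (log2 fold change -1.05, adjusted p = 0.107) or induced B (-0.93, adjusted p = 0.148) in edgeR. The miR-195a-3p call was lost without uninduced A (-1.41, adjusted p = 0.0561), induced A (-1.42, adjusted p = 0.0732) or induced B (-1.36, adjusted p = 0.112) in edgeR, at nearly the same size.

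miR-322-5p averaged 211 ± 20.9 CPM in induced cells and 318 ± 43.2 CPM in uninduced cells (SD, n = 2 each), a log2 fold change of -0.60 ± 0.32 that was not called (by edgeR, adjusted p = 0.180). It was called in 5 of 17 alternatives, among them the fits without knockout line 1 (by edgeR, adjusted p = 0.0430) and without line 2 (adjusted p = 0.0267). The log2 fold changes of the uncalled rest were -0.76 ± 0.43 for miR-15a-3p, -0.41 ± 0.38 for miR-15b-3p, -0.39 ± 0.22 for miR-15a-5p, 0.16 ± 0.23 for miR-15b-5p, -0.052 ± 0.17 for miR-16-5p and -0.039 ± 0.56 for miR-322-3p. Of these, miR-15a-5p was called with no TMM factors (log2 fold change -0.60; by edgeR, adjusted p = 0.0459).

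Against wild type, the induced line had its called differences in partner arms: 1 member was higher and 1 lower, where 19.2% of all tested miRNAs were higher and 19.8% lower. The median log2 fold change was 0.15 for the members and 0.01 for all tested miRNAs. Loss of Ago2, AGO1, puromycin, doxycycline and the single line cannot be told apart in this comparison. miR-195a-3p averaged 128.1 ± 6.37 CPM in induced cells and 24.6 ± 10.6 CPM in wild type (SD, n = 2 each), a log2 fold change of 2.40 ± 0.39 (by edgeR, adjusted p = 0.00130), or 3.07 without wild type A. miR-15b-3p averaged 31.9 ± 5.67 CPM in induced cells and 125 ± 0.31 CPM in wild type, a log2 fold change of -1.96 ± 0.34 (by edgeR, adjusted p = 0.00190). Both were called under all 17 alternatives.

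In induced cells miR-195a-5p, at 130 ± 30.8 CPM against 82.4 ± 5.91 CPM in wild type (SD, n = 2 each), had a log2 fold change of 0.66 ± 0.28 that was not called (by edgeR, adjusted p = 0.0882). It was called in 5 of 17 alternatives, among them the fits without knockout line 1 (by edgeR, adjusted p = 0.0197) and without line 2 (adjusted p = 0.0202). miR-322-5p had a log2 fold change of 0.47 ± 0.31 (by edgeR, adjusted p = 0.259, called in 2 of 17 alternatives) and miR-15a-3p of 0.47 ± 0.44 (by edgeR, adjusted p = 0.417). The other 4 members ranged from -0.38 for miR-15b-5p to 0.15 for miR-16-5p, and none was called.

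Because the arms of a hairpin are cut from the same precursor, their ratio leaves out how much of the hairpin was made. It was tested in edgeR over the 135 hairpins with both arms tested, with each library as a term, and 4 hairpins have both arms among the members. For miR-195a, the induced libraries had 155 counts of 3p against 178 of 5p (A) and 124 against 109 (B). The uninduced libraries had 237 against 215 (A) and 113 against 90 (B), and the knockouts 74 against 82 (line 1) and 67 against 57 (line 2). Wild type had 27 against 73 (A) and 19 against 87 (B). The 3p arm was thus 46.5% to 55.7% of the hairpin's counts in the 6 libraries without Ago2, and in wild type 27.0% in A (95% exact interval 18.6% to 36.8%) and 17.9% in B (11.2% to 26.6%), intervals that cover counting error only.

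The 3p over 5p ratio of miR-195a was higher than in wild type in each group without Ago2. Its log2 difference was 1.82 ± 0.36 in the knockouts (by edgeR, adjusted p = 0.00114), 2.01 ± 0.34 in the uninduced line (adjusted p = 0.000314) and 1.77 ± 0.34 in the induced line (adjusted p = 0.00102), the same wild type libraries serving all 3. Each was called under all 10 alternatives. These 3 results are further tied, because the labels name the AGO1 line after knockout line 1. The 5p counts in this ratio carry the uncertainty from miR-16-5p named above: miR-195a-5p came to 0.602% and 0.498% of the miR-16-5p counts in the induced line, 1.14% and 1.25% in the uninduced line, 0.818% and 1.52% in the knockouts, and 0.402% and 0.372% in wild type. A fixed share of miR-16-5p reads counted as miR-195a-5p would be a larger part of the miR-195a-5p counts in wild type than in the other groups, and how much this adds to the difference in ratio was not tested. Between induced and uninduced cells the log2 difference was -0.24 ± 0.29 (by edgeR, adjusted p = 0.624), so the fall of both miR-195a arms on induction came with no called change of their ratio. Between the uninduced line and the knockouts it was 0.19 ± 0.31 (by edgeR, adjusted p = 0.966).

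**Figure D4:**
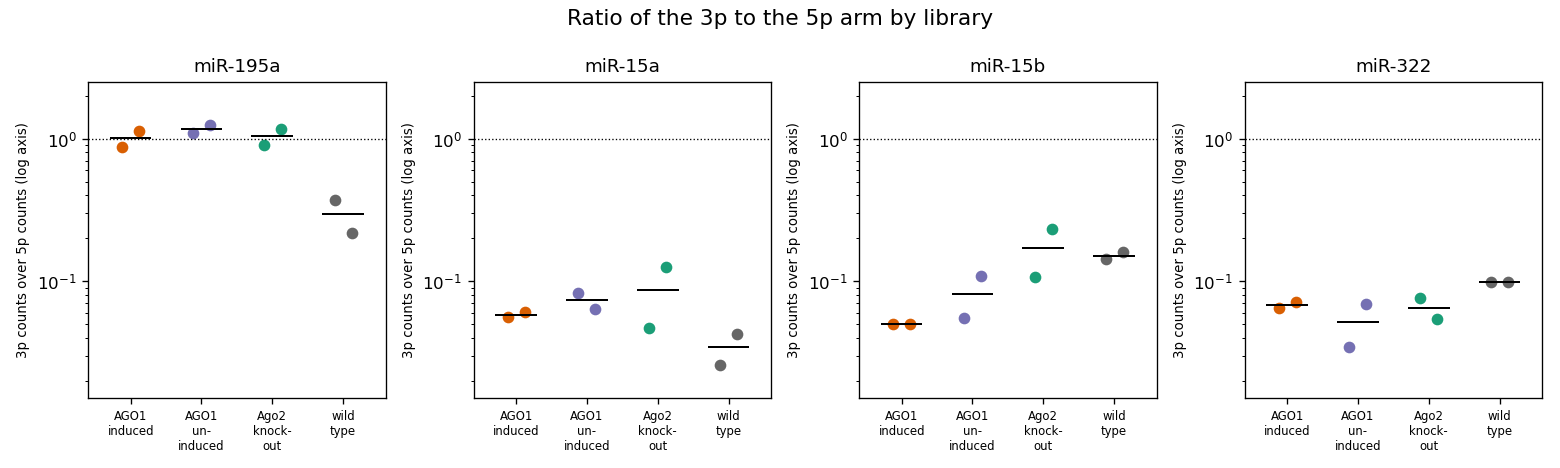
Ratio of 3p to 5p counts (log axis) for the 4 hairpins with both arms among the members, by library, in the induced AGO1 line, uninduced AGO1 line, Ago2 knockouts and wild type. For miR-195a the 6 libraries without Ago2 lie between 0.871 and 1.26 and wild type at 0.370 and 0.218; for miR-15b the induced line lies lowest, at 0.0502 and 0.0498.

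miR-15b moved the other way. Its 3p over 5p ratio was 0.0502 and 0.0498 in the induced line, 0.0552 and 0.108 in the uninduced line, 0.107 and 0.232 in the knockouts, and 0.142 and 0.160 in wild type. The log2 difference from wild type was -1.59 ± 0.34 in the induced line (by edgeR, adjusted p = 0.00168, called under all 10 alternatives). In the uninduced line it was -1.07 ± 0.37 (by edgeR, adjusted p = 0.0303), a call lost in limma (adjusted p = 0.144) and without uninduced A (-0.48, adjusted p = 0.541), wild type B (-0.99, adjusted p = 0.0914), induced A (-1.07, adjusted p = 0.0710) or induced B (-1.07, adjusted p = 0.0709). In the knockouts, whose lines lie on either side of wild type, it was -0.0044 ± 0.35 (by edgeR, adjusted p = 0.990). Between the uninduced line and the knockouts it was -1.07 ± 0.42 (by edgeR, adjusted p = 0.517), or -1.70 and called without knockout line 1 (adjusted p = 0.0418).

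Among the member hairpins, 1 was higher and 0 lower in the knockouts, against 20.7% and 20% of all 135 hairpins. In the uninduced line 2 were higher and 1 lower, against 25.9% and 23%, and in the induced line 1 was higher and 1 lower than wild type, against 23.7% and 22.2%. Between induced and uninduced cells 0 of the 4 were called, where 3.7% of all hairpins were higher and 1.48% lower, and between the uninduced line and the knockouts 0, where 0.741% were higher and 0% lower. The second hairpin higher in the uninduced line was miR-15a, with a log2 difference of 1.13 ± 0.44 (by edgeR, adjusted p = 0.0470). That call was lost in limma (adjusted p = 0.117) and in 6 edgeR fits that each left out an uninduced, induced or wild type library, where it ranged between 0.82 (without wild type A) and 1.54 (without wild type B). In the knockouts the miR-15a ratio differed by 1.08 ± 0.49 (by edgeR, adjusted p = 0.0913), and by 1.86 and called without line 1 (adjusted p = 0.00768). For miR-322 the log2 difference from wild type was -0.49 ± 0.46 in the knockouts, -1.15 ± 0.47 in the uninduced line (by edgeR, adjusted p = 0.0549, called without uninduced B at 0.0381 and without knockout line 2 at 0.0440) and -0.54 ± 0.41 in the induced line.

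The other products of these clusters and the other carriers of the seed make a list of 20 further rows, 8 of them abundant enough to be tested. Of these 8, the knockouts had 2 higher and 0 lower than wild type, with a median log2 fold change of -0.28. Of all tested miRNAs, 25.5% were higher and 32.2% lower there. The uninduced line had 2 higher and 2 lower (median -0.83), against 25.9% and 33.3% of all tested miRNAs. The induced line had 1 higher and 3 lower (median -0.44), against 19.2% and 19.8%. Induced against uninduced cells gave 1 higher and 0 lower (median -0.11), against 21.1% and 7.79% of all tested miRNAs. Uninduced cells against the knockouts gave 0 (median -0.22), against 0% in either direction.

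miR-497a-5p, transcribed beside miR-195a and carrying the family seed, was more abundant than miR-195a-5p, at 775 ± 83.0 CPM in the induced line, 690 ± 68.8 CPM in the uninduced line, 722 ± 53.8 CPM in the knockouts and 546 ± 84.6 CPM in wild type (SD, n = 2 each). It was not called in any of the 5 comparisons, with log2 fold changes against wild type of 0.40 ± 0.21 in the knockouts (by edgeR, adjusted p = 0.123), 0.34 ± 0.21 in the uninduced line (adjusted p = 0.172) and 0.51 ± 0.20 in the induced line (adjusted p = 0.0734). Without wild type A it was called in the knockouts (log2 fold change 0.75, by edgeR, adjusted p = 0.0469) and in the induced line (0.84, adjusted p = 0.0474), and the induced line was also called without knockout line 1 (adjusted p = 0.0168) or line 2 (adjusted p = 0.0236). With no TMM factors it was called in the knockouts (by edgeR, adjusted p = 0.0102) and the uninduced line (adjusted p = 0.0494). The number of miR-497a-5p counts per miR-195a-5p count was 5.48 and 6.60 in the induced line, 2.58 and 2.16 in the uninduced line, 3.34 and 2.65 in the knockouts, and 7 and 6.22 in wild type. The ratio was lower in all 4 libraries of the uninduced line and the knockouts than in the other 4, a difference that was not tested. The remaining carriers of the seed, miR-195b, miR-6342, miR-6353 and miR-6419, had no count in any library, which allows up to 2.57 CPM in induced A, the deepest library, and 15.1 CPM in knockout line 2, the shallowest.

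The hairpins of miR-16 can be told apart by their 3p arms. miR-16-2-3p, from the Smc4 locus, averaged 52.6 ± 10.3 CPM in the knockouts and 19.2 ± 3.02 CPM in wild type (SD, n = 2 each), a log2 fold change of 1.49 ± 0.40 (by edgeR, adjusted p = 0.0102). That call was lost without knockout line 1 (1.25, adjusted p = 0.119) or wild type B (1.32, adjusted p = 0.0594) in edgeR. In the uninduced line it averaged 39.8 ± 9.56 CPM, a log2 fold change of 1.11 ± 0.38 (by edgeR, adjusted p = 0.0276) that was lost without uninduced A (0.71, adjusted p = 0.352) or wild type B (0.93, adjusted p = 0.141), and by DESeq2 (adjusted p = 0.116). The miR-16-2-3p call in the uninduced line was also lost with no filter (by edgeR, adjusted p = 0.0736). miR-16-1-3p, from the Dleu2 locus, had 9 counts in the knockouts, 18 in the uninduced line and 4 in wild type. Its log2 fold changes of 2.74 ± 0.93 in the knockouts (by edgeR, adjusted p = 0.0298) and 2.87 ± 0.81 in the uninduced line (adjusted p = 0.0119) ranged between 1.99 and 3.95, and between 1.52 and 4.04, over the alternatives. The calls were lost without wild type B in both groups (by edgeR, adjusted p = 0.151 and 0.0999), without knockout line 1 (0.249) or uninduced A (0.430), and by DESeq2 (0.0837 and 0.0637); leaving out wild type A gave the highest values.

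Both 3p arms together came to 12.8 and 12.3 counts per 10000 counts of miR-16-5p in the induced line, 27.1 and 16.7 in the uninduced line, 30.9 and 29.4 in the knockouts, and 11.6 and 8.55 in wild type. The uninduced line and the knockouts were above the other groups in every library, a difference that was not tested. miR-16-5p itself was not called in any comparison.

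On the X chromosome, no tested neighbour of miR-322 shared a called change with miR-322-5p. miR-351-5p averaged 1338 ± 187 CPM in the induced line, 358 ± 75.7 CPM in the uninduced line, 358 ± 108 CPM in the knockouts and 580 ± 172 CPM in wild type (SD, n = 2 each). It was higher in induced than in uninduced cells by 1.89 ± 0.29 on the log2 scale (by edgeR, adjusted p = 0.000952, called under all 17 alternatives) and higher than in wild type by 1.21 ± 0.28 (by edgeR, adjusted p = 0.00815), which was no longer called without wild type B (0.93, adjusted p = 0.0826). miR-322-5p had a log2 fold change of -0.60 in the first of these comparisons and 0.47 in the second. The difference between the neighbours was not tested. Between the knockout lines the neighbours went with miR-322-5p, which was at 561 CPM in line 1 and 277 CPM in line 2. In the same order miR-351-5p was at 434 and 282 CPM and miR-450a-5p at 200 and 75.5 CPM. miR-450b-5p was at 249 and 80.5 CPM, miR-542-3p at 34.9 and 5.03 CPM and miR-542-5p at 7.48 and 0 CPM. The values of miR-542-3p and miR-542-5p rest on 14 counts or fewer. miR-450a-5p, miR-450b-5p and miR-542-3p, farther along the cluster, were lower in the induced line than in wild type, with log2 fold changes of -1.18 ± 0.38, -1.31 ± 0.44 and -2.79 ± 0.66 (by edgeR, adjusted p = 0.0332, 0.0373 and 0.00840). miR-450a-5p and miR-450b-5p were also lower in the uninduced line, with log2 fold changes of -1.07 ± 0.40 and -1.34 ± 0.45 (by edgeR, adjusted p = 0.0395 and 0.0252). Each of these 5 calls was lost without wild type A, at log2 fold changes of -0.82, -0.999, -2.63, -0.74 and -1.07 in that order, and other single libraries ended them too. miR-503-5p, the nearest neighbour, had 2 to 7 counts per group and was not tested.

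Likeness was described by the root mean square difference of the log2(CPM + 1) profiles over the 8 libraries, each centred on its own mean, among 384 or 385 tested miRNAs with a mean of at least 20 CPM. miR-16-5p was most like miR-26a-5p, at 0.07 log2 units, miR-361-5p at 0.12 and miR-872-5p at 0.16. miR-15a-5p was most like miR-19b-3p (0.12), miR-20a-5p (0.14) and miR-25-3p (0.17), and miR-15b-5p most like miR-19a-3p (0.10), miR-30c-5p (0.13) and miR-30d-5p (0.18). These are the 5p members that varied least over the libraries.

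The variable members had looser matches. miR-322-5p was most like miR-16-2-3p (0.20), miR-381-3p (0.24) and miR-1198-5p (0.29), and miR-195a-5p most like miR-96-3p (0.26), miR-3470b (0.27) and miR-299a-3p (0.28). miR-195a-3p was most like miR-6539 (0.34), miR-19b-1-5p (0.36) and miR-25-5p (0.40), and miR-15b-3p most like miR-33-5p (0.36), miR-141-5p (0.36) and miR-101a-5p (0.38). miR-15a-3p was most like miR-30b-3p (0.25), miR-3470b (0.27) and miR-467c-5p (0.27), and miR-322-3p most like miR-28a-5p (0.37), miR-28a-3p (0.41) and miR-15a-5p (0.42).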

How the data were processed

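Small RNA was sequenced from total RNA (1 µg per library, TruSeq small RNA kit, per the labels' protocols) of the 8 mouse ES cell libraries. The values used are the authors' deposited raw counts, 1 whole number per mature miRNA and library. The submitters' processing notes list Bowtie and mm10, with no version; how reads were trimmed, how mismatched or multiply matching reads were treated and which miRNA release was used is not given in the sources used here. Columns were read by the first of 2 header lines, since 1 wild type name of the second differs from it.

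From these counts, edgeR 4.0.16 in R 4.3.3 (limma 3.58.1 and DESeq2 1.42.0 for alternatives) tested the 475 miRNAs kept by filterByExpr, with 99.9% of counts; 901 of 1915 rows were empty. A single quasi-likelihood fit with TMM factors covered the 4 groups (4 residual degrees of freedom, common biological coefficient of variation 0.244). Benjamini-Hochberg adjustment ran over the 475 within each of 5 comparisons, 2-sided. CPM were computed on totals times TMM factors. The share of all tested miRNAs whose groups did not overlap is not given, so non-overlap of a member is a description only. Standard errors were derived as log2 fold change over root F and are approximate. Zero counts were taken to allow at most 3 counts. Without molecular identifiers, such limits and the intervals describe counting error alone. The arm ratio was the interaction of arm and group in an edgeR fit of 16 columns, 2 arms for each of 8 libraries, adjusted for library. The 2 libraries of a group did not repeat each other: within groups the chi-square was 12.4 to 44.2 per degree of freedom. Libraries of different groups were not compared in this way. The scripts were tested on simulated data.

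All 9 members are named, with those of the list of cluster products and seed carriers that were called or share the seed, and the 3 most alike miRNAs of each member. The members and lists were chosen with earlier results of these data known. Alternatives varied the scaling (DESeq2 size factors, or none), the test (DESeq2), the filter (none, or a mean of 20 CPM), the libraries fitted (the 2 groups alone, 1 library fewer), the depth (all thinned to 163467 counts) and a block for the letters A and B. The arm ratio was repeated in limma on log2 ratios with a pseudocount of 0.5, and with 10 or more counts per arm. A fit of the 6 lettered libraries with no block was added after the data were seen.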

Additional observations from a re-analysis of the deposited data

How the results depend on the processing

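The rises of both miR-195a arms in the knockouts and the uninduced line, of miR-195a-3p in the induced line and of the miR-195a arm ratio against wild type kept their direction and call under every alternative run, as did the fall of miR-15b-3p in the induced line. No strong pairing of the libraries by the letters A and B was seen. The correlations of the A minus B differences were 0.05 (wild type and uninduced), -0.01 (wild type and induced) and 0.20 (uninduced and induced). Such values cannot show that libraries with the same letter were handled apart. With the letters as a replicate block, members lower in the uninduced line against wild type numbered 2. Members higher and lower in the induced line numbered 3 and 2. Of 483 miRNAs tested in the 6 lettered libraries, the block gave 321, 250 and 192 calls. These were for uninduced against wild type, induced against wild type and induced against uninduced. Without the block (a fit chosen after seeing the data) the same libraries gave 321, 256 and 202 calls of 483. In that fit, members lower in the uninduced line were 2 and members higher in the induced line 2. With only the 2 groups compared, members lower in the uninduced line were 2 and members higher in the induced line 3, and thinning left 2 members higher in the uninduced line.

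Thinning to the smallest library left 325 miRNAs to test, against 475 as reported, so part of the drop in calls is in the number tested. All calls were then 151 (274 as reported) in the knockouts and 161 (281) in the uninduced line. They were 96 (185) in the induced line and 61 (137) between induced and uninduced cells. Uninduced cells against the knockouts gave 14 calls of 1014 tested with no filter and 2 of 475 with no TMM factors. Without TMM factors the median of all miRNAs in the knockouts was 0.16 and 155 of 266 calls were higher (121 of 274 as reported); between induced and uninduced cells it was -0.17 with 83 of 147 higher (100 of 137), and between uninduced cells and the knockouts -0.19.

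All results that changed sign were uncalled as reported. Apart from fits that left out a library, they were these. Against wild type in the knockouts, miR-16-5p was -0.042 with no filter. In the uninduced line miR-322-3p was 0.036 with DESeq2 size factors, 0.094 with no TMM factors and 0.096 by DESeq2, and in the induced line 0.0016 with only the 2 groups. Between induced and uninduced cells miR-15b-5p was -0.050 and miR-497a-5p -0.041 with no TMM factors, and with no filter miR-16-5p was 0.038 and miR-322-3p 0.051. Between uninduced cells and the knockouts miR-15a-5p was 0.094 when thinned and miR-16-5p -0.020 with no TMM factors. In limma the arm ratio of miR-15b in the knockouts was 0.080, that of miR-15a between uninduced cells and the knockouts -0.10, and the hairpins higher and lower in the uninduced line 1 and 0. The cause was not tested.

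Leaving out each library in turn, the knockouts against wild type gave -0.65 to 0.074 for miR-15b-3p, -0.17 to 0.27 for miR-16-5p, -0.49 to 0.62 for the miR-15b ratio and 1 to 2 hairpins higher. The uninduced line against wild type gave 2 to 4 members higher and 0 to 2 lower, -0.0072 to 0.34 for miR-15a-5p, -0.19 to 0.33 for miR-322-3p, 1 to 2 hairpins higher and 0 to 2 lower. The induced line against wild type gave 1 to 2 members higher, -0.39 to 0.037 for miR-15a-5p and -0.22 to 0.25 for miR-322-3p. Induced against uninduced cells gave 0 to 3 members lower, -0.19 to 0.52 for miR-15b-5p, -0.24 to 0.12 for miR-16-5p, -0.34 to 0.091 for miR-322-3p, -0.088 to 0.41 for miR-497a-5p and -0.027 to 0.97 for the miR-322 ratio. Uninduced cells against the knockouts gave 0 to 1 members and 0 to 1 hairpins lower, -0.22 to 0.095 for miR-15a-5p, -0.65 to 0.45 for miR-15a-3p, -0.56 to 0.17 for miR-15b-5p, -0.057 to 0.38 for miR-16-5p, -0.83 to 0.22 for miR-322-5p, -0.32 to 0.21 for miR-497a-5p, -0.73 to 0.69 for the miR-15a ratio and -0.012 to 0.37 for the miR-195a ratio. Where 1 library remains in a group, it is assumed to vary like the other groups. Few counts stand behind miR-15a-3p, miR-322-3p and the miR-16 3p arms.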
